A study of Mus musculus with 18 samples.

Results

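The mouse cerebral cortex was compared between postnatal day 4 (P4) and late gestation (E17.5) by bulk RNA sequencing, with both genotypes of the study pooled. Every P4 and E17.5 cortex library was used, 8 of the 16 cortex libraries and of the 18 libraries in all. The tissue came from male C57BL/6J mice that were wild type (WT) or labelled as Mcph1 knockout (Mcph1KO), and each stage held 2 libraries labelled Mcph1KO and 2 WT libraries. Mcph1 encodes microcephalin, a protein of chromosome condensation and DNA damage signalling that is mutated in primary microcephaly, and the labels give neither the allele nor how it was made.

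At P4 the cortex held less messenger RNA of dividing progenitors and more of synapses and glia than at E17.5. Of all genes tested 18.7% were higher at P4 and 18.1% lower, while all 30 mitosis genes and all 14 genes of intermediate progenitors and proneural factors were lower. Of 28 genes of synaptic vesicle release 25 were higher, as were 20 of 28 astrocyte genes and 14 of 18 genes of oligodendrocyte precursors. Of NMDA receptor subunits 5 of 7 were higher and of GABA-A receptor subunits 11 of 14. Of the mitochondrial genome 12 of 13 genes were higher, while 0 of 47 nuclear genes of the respiratory chain were. The mitochondrial and astrocyte counts were smaller without both E17.5 libraries labelled replicate 1, as given below. The RNA-binding Igf2bp family, the imprinted genes H19 and Mest and the globins of circulating red blood cells fell.

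As background, projection neurons of the cortex are born before birth from radial glia, the stem cells that line the ventricle, largely through intermediate progenitors that divide again near the ventricle. Around birth radial glia turn to making astrocytes and oligodendrocyte precursors, and the neurons already in place extend axons, form synapses and acquire the channels of mature firing. In the same weeks chloride transport, receptor composition, hormone signalling and energy use are remodelled. In bulk tissue, fewer cells of a type and less RNA per cell cannot be told apart.

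Counts were scaled to library size with TMM factors (CPM), and a gene was called higher or lower where its adjusted p was under 0.05 in edgeR's quasi-likelihood test with genotype as a covariate and Benjamini-Hochberg adjustment over the whole table. Log2 fold changes are P4 minus E17.5 with their standard error (SE), each from 4 libraries a stage, a gene that rose or fell by a value did so on that scale, and values of single libraries are listed as Mcph1KO replicates 1 and 2, then WT replicates 1 and 2. Nothing in the labels ties a library to its own animal, so the p-values measure the spread between these libraries, which may be technical. The libraries of a stage may also not be independent, which would make the p-values too small, as given near the end. Total counts were between 23654447 and 32041849 per library, with 23141 to 25407 genes detected by 1 count or more. Stage separated the libraries on the first principal component, which held 55.3% of the variance, with P4 between -61.84 and -45.04. The E17.5 libraries lay apart from each other on it, those numbered 1 at 83.3 (Mcph1KO) and 76.69 (WT) and those numbered 2 at 25.96 (Mcph1KO) and 28.28 (WT).

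Mcph1, the gene named in the genotype labels, was counted in every library. It was counted at 16, 14.8, 13.3 and 11.8 CPM at P4, against 13, 14.7, 13.2 and 11.1 CPM at E17.5. The libraries labelled Mcph1KO were on average not lower than WT at either stage, and counts over a whole gene do not show whether a part of it is deleted, so the labels could not be checked this way and genotypes are given as labelled. Its stage difference was 0.10 ± 0.14 (adjusted p = 0.599, edgeR's quasi-likelihood test), with overlapping stages.

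Of 17669 genes tested, 3297 were higher at P4 (18.7%) and 3204 were lower (18.1%), together 6501 (36.8%). The median log2 fold change over all genes tested was 0.02. All 4 P4 libraries lay above all 4 E17.5 libraries for 3285 genes (18.6%) and below them for 3496 (19.8%), together 6781 (38.4%). At least 2-fold changes were called for 1647 genes that were higher (9.32%) and 909 that were lower (5.14%). The calls leaned on the E17.5 libraries numbered 1. With E17.5 Mcph1KO replicate 1 left out 2145 genes were higher and 2127 lower, and with E17.5 WT replicate 1 left out 2167 were higher. With both left out, an alternative chosen after the data were seen and called the reduced set here, 1146 were higher, of which 1125 were also called with all libraries, and 1095 were lower, of which 1069 were. Where the reduced set moved a list's count of at least 2 genes by over 1.5 times, its count is given beside the list, and single calls lost there are not all given.

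The plot of the 12 largest rises and falls shows how these genes lie in each library. Neurog2 (chr3:127633135-127635631, + strand, GRCm38), the proneural factor that commits progenitors to a glutamatergic neuron fate, had the largest fall among called genes with non-overlapping stages and a mean of at least 5 CPM in the higher stage. It was counted at 3.75, 3.97, 4.63 and 1.17 CPM at P4, against 132, 66.7, 126 and 81.3 CPM at E17.5. The lowest E17.5 library was far above the highest P4 library (log2 fold change -4.92 ± 0.40, adjusted p = 5e-04, edgeR's quasi-likelihood test). Eomes (chr9:118478212-118486132, + strand), also known as Tbr2 and the marker of intermediate progenitors, was at 11.7, 5.57, 14.1 and 1.25 CPM at P4 and at 182, 96.3, 165 and 102 CPM at E17.5. Its stages did not overlap either (-4.07 ± 0.59), and P4 WT replicate 2 was the lowest library for both genes. The basic helix-loop-helix factors Nhlh1 (-3.96 ± 0.47) and Neurod4 (-2.74 ± 0.53), which act just after Neurog2 in new neurons, the progenitor factor Tfap2c (-3.20 ± 0.37) and Celsr1 (-2.81 ± 0.27), a planar polarity cadherin of neuroepithelium, were among the 12. So were Phf21b (-2.89 ± 0.34) and the collagen gene Col2a1 (-2.98 ± 0.33).

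**Figure D1:**
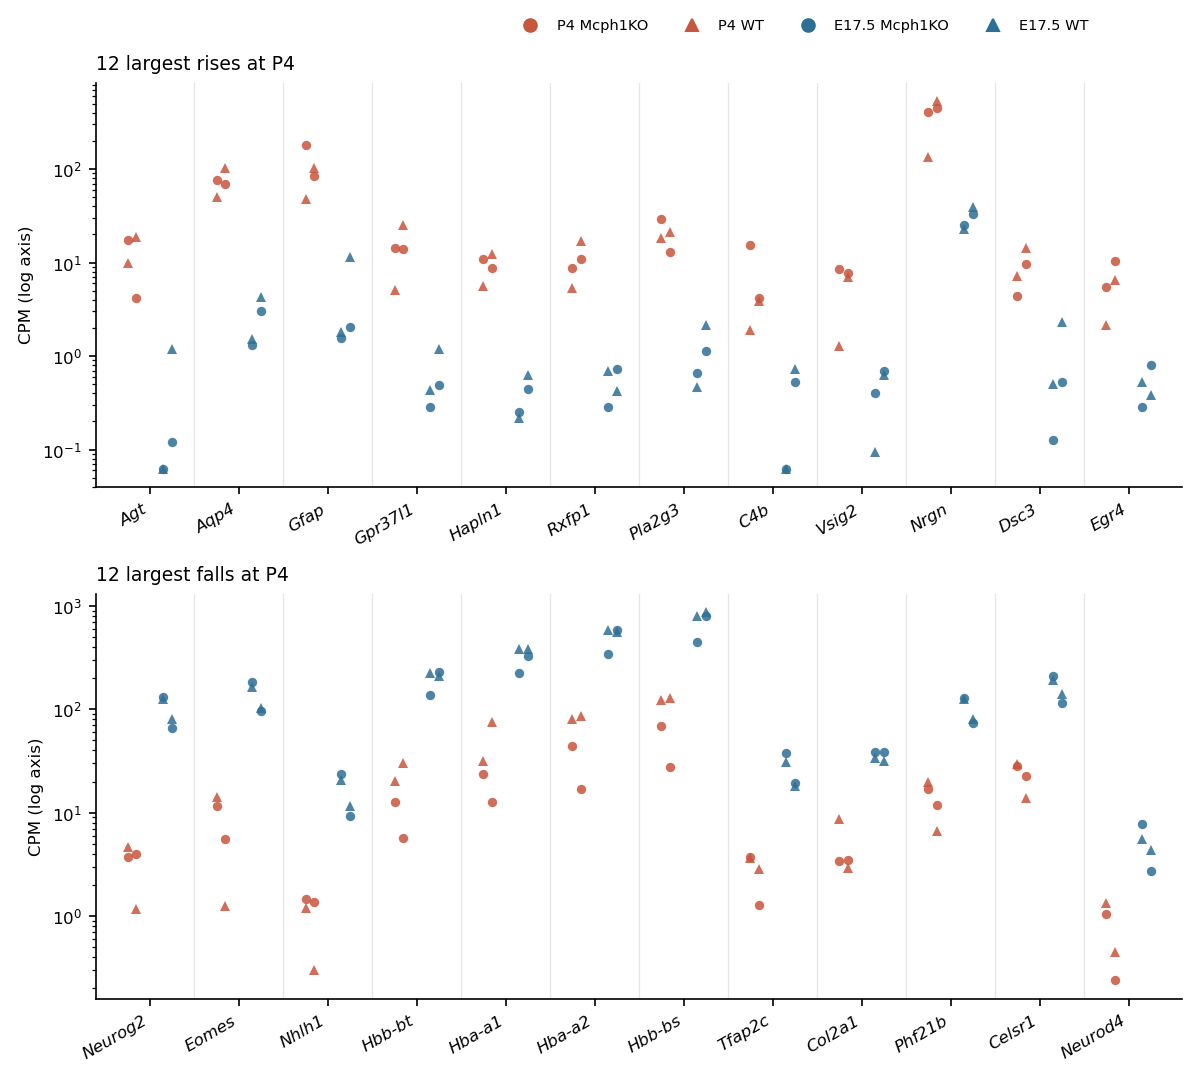
CPM (log axis) of the 12 genes with the largest rises and the 12 with the largest falls among called genes with non-overlapping stages and a mean of at least 5 CPM in the higher stage. Each point is 1 library, P4 left of E17.5 for each gene, circles labelled Mcph1KO and triangles WT; Neurog2 lies between 1.17 and 4.63 CPM at P4 and between 66.7 and 132 CPM at E17.5.

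The remaining 4 of the 12 largest falls were globin genes of circulating red blood cells. Hbb-bt was at 12.8, 5.73, 20.1 and 30.5 CPM at P4, against 137, 229, 224 and 208 CPM at E17.5, with no overlap (log2 fold change -3.69 ± 0.35). The pairs Hba-a1 (-3.38 ± 0.36) with Hba-a2 (-3.35 ± 0.35) and Hbb-bs (-3.20 ± 0.33) with Hbb-bt are near-identical copies, so the share of reads given to each copy is uncertain. Of 12 red blood cell genes 8 were lower, including Alas2, the first enzyme of heme synthesis in red cells, at 2, 1.2, 1.69 and 4.46 CPM at P4 and 9.04, 12.8, 13.8 and 10.4 CPM at E17.5 (-2.36 ± 0.35). Their summed level was 220 to 458 CPM at P4 and 1220 to 2080 CPM at E17.5. The embryonic globin gene Hba-x had 0 counts in all P4 libraries and 94 counts at E17.5, at least 28.4-fold lower at P4 against a floor of 3 counts over the group, which covers counting error only. Tfrc, the transferrin receptor, which endothelium and neurons also express, was the 1 member that rose. It was at 118, 145, 90.5 and 125 CPM at P4, against 44.3, 49.8, 43.6 and 37.8 CPM at E17.5 (1.44 ± 0.14). Over the reduced set, 5 of 10 red blood cell genes tested were lower.

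Among the 12 largest rises, chosen under the same conditions as the falls, astrocyte genes came first. Agt (chr8:124556534-124569706, - strand), which encodes angiotensinogen and is made by astrocytes in the brain, was at 17.3, 4.17, 10 and 18.6 CPM at P4, against 0.0628, 0.121, 0.0623 and 1.2 CPM at E17.5. All P4 libraries were above all E17.5 libraries, and E17.5 WT replicate 2 stood above the other E17.5 libraries (log2 fold change 5.36 ± 0.83, adjusted p = 0.00154, edgeR's quasi-likelihood test). Aqp4 (chr18:15389496-15410982, - strand), the water channel of astrocyte endfeet, had 75.5, 68.8, 50.5 and 102 CPM at P4 and 1.32, 3.07, 1.53 and 4.27 CPM at E17.5 (4.90 ± 0.39). Gfap (chr11:102887336-102900912, - strand), the intermediate filament of astrocytes, had 183, 84.8, 47.4 and 103 CPM at P4 and 1.57, 2.06, 1.81 and 11.6 CPM at E17.5 (4.74 ± 0.75). Without E17.5 WT replicate 2 the log2 fold change was 7.13 for Agt and 5.84 for Gfap, and both calls were kept. At each stage the libraries varied several-fold in Gfap, but the lowest P4 library remained above the highest E17.5 library. Gpr37l1, an orphan receptor of astrocytes, rose by 4.67 ± 0.57 and Hapln1, a link protein of the hyaluronan matrix, by 4.64 ± 0.41 on the log2 scale.

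The other large rises belonged to several cell types. Nrgn (chr9:37544492-37552904, - strand), which encodes neurogranin, a calmodulin-binding protein of forebrain dendritic spines, was at 410, 447, 135 and 535 CPM at P4, against 25.4, 32.9, 22.7 and 38.9 CPM at E17.5 (3.66 ± 0.40). P4 WT replicate 1 was the lowest P4 library and still several times the highest E17.5 library. Egr4, an activity-regulated transcription factor, rose by 3.55 ± 0.48. Rxfp1, the relaxin receptor (4.31 ± 0.45), the phospholipase gene Pla2g3 (4.24 ± 0.46), Vsig2 (3.74 ± 0.62) and the desmosomal cadherin gene Dsc3 (3.60 ± 0.62) completed the list with the complement gene C4b. C4b was at 15.5, 4.17, 1.89 and 3.89 CPM at P4, against 0.0628, 0.525, 0.0623 and 0.737 CPM at E17.5 (4.0 ± 0.85), and it is near-identical to C4a, so its counts are uncertain. Without P4 Mcph1KO replicate 1, its highest library, the log2 fold change of C4b was 3.29 and its call was kept.

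The smallest p-values came from genes with tight replicates. Gnal (chr18:67088216-67226792, + strand), the G protein subunit that couples receptors to adenylyl cyclase in forebrain neurons, was at 429, 464, 355 and 415 CPM at P4 and 135, 152, 152 and 124 CPM at E17.5 (1.56 ± 0.11). Adcy2, an adenylyl cyclase, was at 63.9, 62.1, 55.6 and 60.2 CPM at P4 and 17, 23.2, 15.8 and 20.3 CPM at E17.5 (1.66 ± 0.13). For both genes the libraries of a stage lay close together and clear of the other stage. Luzp2 (1.48 ± 0.11), Mpv17l (1.63 ± 0.13) and the copine gene Cpne8 (1.69 ± 0.14) rose with them. Among the falls, Scrt2 (chr2:152081529-152095802, + strand), a zinc finger repressor of newborn neurons, was at 41.8, 56.5, 44.4 and 34.9 CPM at P4 and 192, 150, 191 and 168 CPM at E17.5 (-1.99 ± 0.16). The Wnt receptor gene Fzd1 was at 27.6, 26.4, 25.5 and 26 CPM at P4 and 78.5, 60.4, 80.2 and 89.8 CPM at E17.5 (-1.54 ± 0.13). Msi1, the RNA-binding protein Musashi-1 of neural stem cells (-1.32 ± 0.11), the phosphatase gene Dusp4 (-1.70 ± 0.14) and the LIM protein gene Ajuba (-1.94 ± 0.16) fell with similar precision.

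Radial glia genes fell more often than they rose. Of 23 measured, 11 were lower at P4 (47.8%, against 18.1% of all genes tested), with a median log2 fold change of -0.62. Another 5 were higher (21.7%), a share near the 18.7% of all genes tested. The 11 include Nes, the intermediate filament nestin, at 44.8, 69.4, 54.5 and 46.4 CPM at P4 and 260, 162, 223 and 141 CPM at E17.5 (-1.87 ± 0.21). Vim, the filament vimentin, was at 187, 166, 262 and 194 CPM at P4, against 535, 477, 477 and 473 CPM at E17.5 (-1.29 ± 0.14). Vimentin levels thus fell well below every E17.5 library while staying present in all P4 libraries. The 5 higher members include Slc1a3 and Ptprz1. Slc1a3, the glutamate transporter GLAST of radial glia and astrocytes, was at 527, 385, 331 and 355 CPM at P4 and 174, 198, 162 and 196 CPM at E17.5 (1.11 ± 0.14). Ptprz1, a receptor phosphatase of radial glia and oligodendrocyte precursors, was at 739, 746, 811 and 798 CPM at P4 and 401, 401, 411 and 463 CPM at E17.5 (0.88 ± 0.09). The summed level of the whole list was 2800 to 3180 CPM at P4 and 2920 to 3430 CPM at E17.5. With the reduced set, 7 members were lower and 3 higher.

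All 14 genes of intermediate progenitors and proneural factors were lower, with a median of -2.26 and a summed level of 167 to 235 CPM at P4 and 637 to 1020 CPM at E17.5. Insm1, a zinc finger factor that drives the production of basal progenitors, was at 55.4, 41.9, 44 and 24.9 CPM at P4 and 207, 154, 190 and 215 CPM at E17.5 (-2.22 ± 0.22). All P4 libraries lay far below all E17.5 libraries. The Notch ligand genes Dll1 (-1.23 ± 0.15) and Dll3 (-0.99 ± 0.16), the Notch-modifying glycosyltransferase gene Mfng (-2.53 ± 0.22), the antiproliferative Btg2 (-1.72 ± 0.30) and the growth arrest gene Gadd45g (-2.30 ± 0.32) fell too, as did Neurod1 (-1.21 ± 0.15). Neurog1 had 2 counts in all P4 libraries together and 387 at E17.5, a ratio of 175 in favour of E17.5 with a counting interval at the 95% level between 48.3 and 1450. The list's median was the same with Neurog1 set to that ratio.

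The mitosis list fell as a whole. All 30 genes were lower, with a median log2 fold change of -1.93, and their summed level was 334 to 507 CPM at P4 and 923 to 1870 CPM at E17.5. Mki67 (chr7:135689784-135716361, - strand), the proliferation antigen Ki-67, was at 37.5, 43.2, 55.7 and 32.6 CPM at P4 and 217, 148, 194 and 111 CPM at E17.5 (-1.98 ± 0.24, adjusted p = 0.000614, edgeR's quasi-likelihood test). Plk1 (chr7:122159439-122169873, + strand), the Polo-like kinase of mitotic entry and spindle assembly, was at 7.09, 6.69, 9.46 and 6.92 CPM at P4 and 38, 24.9, 33.8 and 21.3 CPM at E17.5 (-1.97 ± 0.22). In both genes the E17.5 libraries numbered 1 were the higher ones of their genotype, and P4 WT replicate 1 was the highest P4 library. Bub1b, the spindle checkpoint kinase BubR1, was at 8.11, 11.2, 11.3 and 7.86 CPM at P4 and 64.5, 35, 56.6 and 30 CPM at E17.5 (-2.27 ± 0.27). Cenpf, a kinetochore protein, was at 15.2, 16.2, 24.7 and 15 CPM at P4 and 82.7, 63.4, 73.1 and 47.5 CPM at E17.5 (-1.91 ± 0.22). No mitosis gene was at 0 in the P4 libraries, so these transcripts were still measured 4 days after birth.

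The promoters of the 4 mitosis genes of smallest p are shown because the list moved together. They are the 250 bases before the annotated start (RefSeq, GRCm38.p6), 5′ to 3′ on the strand of the gene, with matches to CCAAT and to the cell cycle homology region (TTTGAA or TTCGAA) in capitals on either strand, where CCAAT reads ATTGG on the other strand and TTTGAA reads TTCAAA. They lie at chr7:122159185-122159434, + strand, for Plk1, at chr1:189688087-189688336, - strand, for Cenpf, at chr2:118597961-118598210, + strand, for Bub1b, and at chr7:135716380-135716629, - strand, for Mki67.
Plk1: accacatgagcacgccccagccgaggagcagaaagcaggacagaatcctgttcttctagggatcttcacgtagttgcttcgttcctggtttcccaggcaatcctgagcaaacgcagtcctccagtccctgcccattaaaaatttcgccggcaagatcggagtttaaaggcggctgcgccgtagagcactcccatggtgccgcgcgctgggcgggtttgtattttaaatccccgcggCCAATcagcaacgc
Cenpf: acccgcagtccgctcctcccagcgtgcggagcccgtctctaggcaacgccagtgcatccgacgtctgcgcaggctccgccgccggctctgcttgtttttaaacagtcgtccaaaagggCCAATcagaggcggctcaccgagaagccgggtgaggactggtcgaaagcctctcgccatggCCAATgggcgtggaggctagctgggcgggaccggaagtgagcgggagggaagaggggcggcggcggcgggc
Bub1b: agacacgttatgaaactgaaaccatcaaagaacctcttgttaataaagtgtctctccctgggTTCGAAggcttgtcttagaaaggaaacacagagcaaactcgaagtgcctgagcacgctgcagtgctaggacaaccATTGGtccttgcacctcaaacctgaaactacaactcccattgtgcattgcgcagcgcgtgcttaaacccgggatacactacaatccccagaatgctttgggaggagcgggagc
Mki67: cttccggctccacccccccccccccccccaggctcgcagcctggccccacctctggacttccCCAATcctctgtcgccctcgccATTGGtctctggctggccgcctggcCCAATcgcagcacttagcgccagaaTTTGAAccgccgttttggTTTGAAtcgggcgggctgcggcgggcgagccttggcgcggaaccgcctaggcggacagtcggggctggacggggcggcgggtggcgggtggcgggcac
Each holds at least 1 CCAAT box, and Mki67 holds 3 of them with 2 TTTGAA matches. Plk1 and Cenpf show no match to the homology region in the printed bases, but both were matched in the longer windows described next. RefSeq promoters matched 25 of the 30 mitosis genes, 26 promoters in all. In windows of 300 bases (250 before and 50 after the start), CCAAT was found in 18 of 26 (69.2%), against 37.4% of 32851 promoters of the table. TTTGAA was found in 19 (73.1%), against 17.9% of all promoters, and TTCGAA in 3 (11.5%), against 1.56%. A CCAAT box together with either form of the homology region was found in 16 (61.5%), against 7.52% of all promoters. A match describes the letters only.

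DNA replication genes moved with mitosis. Of 30 measured, 28 were lower and none was higher, with a median of -1.23. Mcm2, a subunit of the replicative helicase, was at 19.5, 18.6, 19.7 and 18.8 CPM at P4 and 92.6, 52.7, 85.1 and 43.6 CPM at E17.5 (-1.84 ± 0.23). Its P4 libraries were nearly equal and its E17.5 libraries numbered 1 were well above those numbered 2. The helicase genes Mcm4 (-1.39 ± 0.17) and Mcm5 (-1.5 ± 0.19) and Uhrf1 (-2.06 ± 0.21), which brings DNA methylation to new strands, fell. Of 22 primary microcephaly genes, a group that includes many centrosome and condensin genes, 15 were lower. Aspm, the spindle pole protein whose loss is the most common cause of the disease in humans, was at 10.5, 9.29, 16 and 8.17 CPM at P4 and 63.5, 40.1, 51.1 and 31.5 CPM at E17.5 (-2.08 ± 0.27). Cdk6 (-1.11 ± 0.14), the condensin gene Ncapd2 (-1.43 ± 0.18) and Nde1 (-1.48 ± 0.20), a dynein regulator at the centrosome, fell as well, and Mcph1 itself was not called. The microcephaly count was 9 in the reduced set.

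Of 24 genes of immature and migrating neurons 11 were lower (45.8%, against 18.1% of all genes tested), with a median of -0.22. Another 5 were higher (20.8%), a share near the 18.7% of all genes tested. Sox11, a transcription factor of newborn neurons, was at 439, 534, 569 and 381 CPM at P4 and 1380, 1480, 1310 and 1740 CPM at E17.5 (-1.62 ± 0.15). Its partner Sox4 was at 635, 593, 766 and 461 CPM at P4 and 2040, 1320, 1920 and 1650 CPM at E17.5 (-1.5 ± 0.18). Both fell to well under their lowest E17.5 library in every P4 library. Among the 5 higher members Gap43, a growth cone protein, was at 905, 931, 841 and 1120 CPM at P4 and 387, 539, 389 and 527 CPM at E17.5 (1.04 ± 0.15). Stmn2, a stathmin of growing axons, was at 1540, 1650, 1550 and 1900 CPM at P4 and 750, 889, 778 and 949 CPM at E17.5 (0.98 ± 0.11). The counts were 2 higher and 8 lower in the reduced set.

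Layer identity genes changed gene by gene. Of 13 upper-layer genes 6 were higher and 1 lower, and of 15 deep-layer genes 4 were higher and 5 lower. Mef2c, an activity-responsive factor of cortical neurons, was at 907, 977, 562 and 1320 CPM at P4 and 217, 189, 258 and 330 CPM at E17.5 (1.95 ± 0.25). Rasgrf2, a marker of layer II and III neurons, rose by 2.41 ± 0.39 and Lmo4 by 0.56 ± 0.10. The upper-layer factors Cux1 (-0.31 ± 0.12) and Cux2 (-0.23 ± 0.14) were not called. Lhx2, which specifies cortical progenitors and upper-layer neurons, fell by 1.09 ± 0.21.

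Among deep-layer genes, Tbr1, the factor of layer VI and subplate neurons, was at 179, 240, 183 and 193 CPM at P4 and 358, 277, 375 and 253 CPM at E17.5 (-0.67 ± 0.16). Sox5, which controls the sequence of deep-layer neurons, was at 87.5, 101, 72.7 and 87.5 CPM at P4 and 255, 124, 234 and 152 CPM at E17.5 (-1.14 ± 0.23). In both, the E17.5 libraries numbered 1 were the higher ones. Cplx3, a complexin of subplate neurons, was at 4.69, 5.13, 1.49 and 5.71 CPM at P4 and 0.0942, 0.0808, 0.0312 and 0.116 CPM at E17.5 (5.66 ± 0.56), so it was near 0 CPM in every E17.5 library. Pcp4 rose by 1.00 ± 0.17. The deep-layer count of 5 lower genes was 3 without any 1 of 6 libraries, P4 Mcph1KO replicate 1 or 2, P4 WT replicate 1 or 2, E17.5 Mcph1KO replicate 1 or E17.5 WT replicate 1, and 1 in the reduced set, where Tbr1 was not called.

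GABAergic interneuron genes went both ways. Of 21 measured 9 were higher and 6 lower. Dlx2, which specifies interneurons in the ventral forebrain, was at 59, 34.7, 47.4 and 31.4 CPM at P4 and 124, 119, 103 and 80.3 CPM at E17.5 (-1.29 ± 0.19), and its neighbour Dlx1 fell by 1.03 ± 0.17. Cck, the neuropeptide cholecystokinin of interneurons and projection neurons, was at 87, 74.2, 27 and 49.7 CPM at P4 and 12.7, 10.6, 12.1 and 16.5 CPM at E17.5 (2.10 ± 0.31). Nxph1, a neurexin ligand of interneurons, rose by 0.86 ± 0.11. Vip had 200 counts at P4 and 3 at E17.5, a ratio of 73.5 with a counting interval at the 95% level between 24.8 and 359. The interneuron marker Pvalb did not pass the filter on low counts. Of 10 genes of Cajal-Retzius cells, the early neurons of the marginal zone, 2 were higher and 5 lower, and the 5 were 1 or 2 without P4 Mcph1KO replicate 1 or 2, P4 WT replicate 2 or E17.5 Mcph1KO replicate 1 or 2. In the reduced set 3 interneuron genes were lower and 7 higher, and no Cajal-Retzius gene was called.

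Astrocyte genes rose in 20 of 28 cases and fell in 2, with a median of 1.21 and a summed level of 3620 to 6220 CPM at P4 and 2630 to 3490 CPM at E17.5. Ntsr2, a neurotensin receptor of astrocytes, was at 9.71, 6.09, 5.75 and 6.88 CPM at P4 and 0.722, 1.09, 0.654 and 0.621 CPM at E17.5 (3.21 ± 0.27). Atp1b2, a sodium pump subunit of glia, was at 223, 191, 205 and 247 CPM at P4 and 54.9, 88, 59.3 and 89.8 CPM at E17.5 (1.57 ± 0.18). Sparcl1, the secreted synapse-promoting protein hevin, was at 631, 551, 326 and 633 CPM at P4 and 142, 189, 147 and 172 CPM at E17.5 (1.71 ± 0.20). In each of the 3 genes every P4 library was above every E17.5 library. The 2 members that fell were the gliogenic transcription factors Sox9 (-0.60 ± 0.16) and Nfia (-0.60 ± 0.17), which radial glia also express. Sox9 was not called without E17.5 Mcph1KO replicate 1 or P4 Mcph1KO replicate 2, Nfia was not called without P4 Mcph1KO replicate 1, P4 WT replicate 2 or E17.5 Mcph1KO replicate 1, and the calls of both were lost in the reduced set. In the reduced set 13 astrocyte genes were higher and 0 lower.

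Oligodendrocyte precursor genes rose in 14 of 18 cases and fell in none (median 1.25, summed level 942 to 1270 CPM at P4 and 564 to 689 CPM at E17.5). Pdgfra, the growth factor receptor of these cells, was at 147, 116, 114 and 165 CPM at P4 and 35.8, 74.7, 47.7 and 64.5 CPM at E17.5 (1.28 ± 0.23). Olig1, a lineage transcription factor, was at 172, 177, 121 and 207 CPM at P4 and 19.5, 47.3, 21.9 and 81.7 CPM at E17.5 (2.02 ± 0.42). For both genes the E17.5 libraries numbered 1 were lower than those numbered 2. Gpr17, a receptor of precursors committed to differentiation, was at 22.7, 37.8, 19.9 and 47.7 CPM at P4 and 4.52, 9.17, 7.17 and 11.7 CPM at E17.5 (2.0 ± 0.34). Bcas1 (2.31 ± 0.38) and Enpp6 (4.37 ± 0.71), both of newly forming oligodendrocytes, rose. Neu4 had 89 counts at P4 and 0 in all E17.5 libraries, at least 32.7-fold higher at P4 against 3 counts over the group, and the list's median was the same with Neu4 at that bound. Lhfpl3 (1.39 ± 0.16), Cspg4 (1.06 ± 0.16), which encodes NG2, and Opcml (1.6 ± 0.19) rose as well.

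Of 14 myelin genes measured 4 were higher (28.6%, against 18.7% of all genes tested) and none was lower. The myelin genes Mobp, Opalin, Fa2h and Hapln2 did not pass the filter on low counts. Cnp, an early myelin enzyme, was at 47.7, 30.9, 34.6 and 42.2 CPM at P4 and 12.7, 19.7, 14.3 and 17.7 CPM at E17.5 (1.27 ± 0.19). Mbp, myelin basic protein, was at 50.1, 47, 36.9 and 62.4 CPM at P4 and 25.9, 32.2, 25.5 and 27.1 CPM at E17.5 (0.83 ± 0.16), a smaller step. Tspan2 (1.03 ± 0.17) and the connexin gene Gjb1 (1.63 ± 0.39) were the other 2. Mag (0.45 ± 0.54) and Mog (0.11 ± 0.28) were not called. Over the reduced set the count was 2, and Mbp and Gjb1 were not called.

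Microglia genes were higher in 7 of 24 cases and lower in none (median 0.56, summed level 201 to 323 CPM at P4 and 155 to 164 CPM at E17.5). Csf1r, the receptor these cells need to survive, was at 39.1, 30.2, 37.4 and 30.5 CPM at P4 and 21, 23.5, 21.3 and 21.4 CPM at E17.5 (0.65 ± 0.13). Its P4 libraries were above all E17.5 libraries, by less than 2-fold on average. The count was 3 without P4 Mcph1KO replicate 1 or E17.5 Mcph1KO replicate 1, 4 without P4 WT replicate 2, E17.5 WT replicate 1 or E17.5 WT replicate 2, and 1 in the reduced set, where Csf1r was not called.

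Of 25 endothelial genes 4 were higher (16%) and 3 lower (12%), shares no larger than those of all genes tested. Slco1c1, a thyroid hormone transporter of the blood-brain barrier, rose by 1.24 ± 0.23 and Ly6c1, a surface antigen of brain endothelium, by 1.86 ± 0.36. The glucose transporter gene Slc2a1 fell by 0.68 ± 0.16. The higher count was 2 without E17.5 Mcph1KO replicate 1, E17.5 WT replicate 1 or E17.5 WT replicate 2. Of 14 genes of pericytes and smooth muscle 2 were higher and 5 lower. Kcnj8, a potassium channel of pericytes, fell by 1.02 ± 0.16, and Atp13a5, a pericyte transporter, rose by 2.35 ± 0.50. With the reduced set 1 endothelial gene was higher and none was lower, Ly6c1 and Slc2a1 lost their calls, and 3 pericyte genes were lower.

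Markers of neighbouring brain regions differed between libraries. The choroid plexus marker Ttr was at 84.3, 812, 322 and 0.945 CPM at P4 and 1.32, 459, 703 and 986 CPM at E17.5 (-0.71 ± 1.77). The thalamus marker Tcf7l2 was at 9.82, 4.61, 175 and 12.2 CPM at P4 and 10, 104, 8.32 and 157 CPM at E17.5 (-1.33 ± 1.24). Neither followed stage, and the libraries high in Tcf7l2 were P4 WT replicate 1 and both E17.5 libraries numbered 2. The summed level of all 15 choroid plexus genes was 81.1 to 983 CPM at P4 and 39.6 to 1180 CPM at E17.5, with 1 gene higher and none lower. That of 19 genes of thalamus and hypothalamus was 165 to 610 CPM at P4 and 210 to 587 CPM at E17.5, with none higher and 3 lower, and the 3 were 0 without P4 Mcph1KO replicate 1, P4 Mcph1KO replicate 2 or E17.5 Mcph1KO replicate 1. The choroid plexus count was 0 without P4 Mcph1KO replicate 1, P4 WT replicate 1, E17.5 Mcph1KO replicate 1 or E17.5 WT replicate 1, and 2 without E17.5 Mcph1KO replicate 2. Of 19 striatal genes 6 were higher, among them Penk, the enkephalin precursor (1.89 ± 0.22), and Rgs9 (1.49 ± 0.17), and 5 were lower, among them Ebf1 (-1.6 ± 0.32) and Zfp503 (-1.27 ± 0.25). Of 15 hippocampal genes 7 were higher, among them Wfs1 (1.44 ± 0.22), and 1 was lower, and the 7 were 4 without P4 Mcph1KO replicate 1 or E17.5 Mcph1KO replicate 1. In the reduced set, no gene of the choroid plexus or thalamus lists was called, 5 striatal genes were higher and 1 lower, with Ebf1 and Zfp503 not called, and 2 hippocampal genes were higher. The part of these regions in the other results was not tested.

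**Figure D2:**
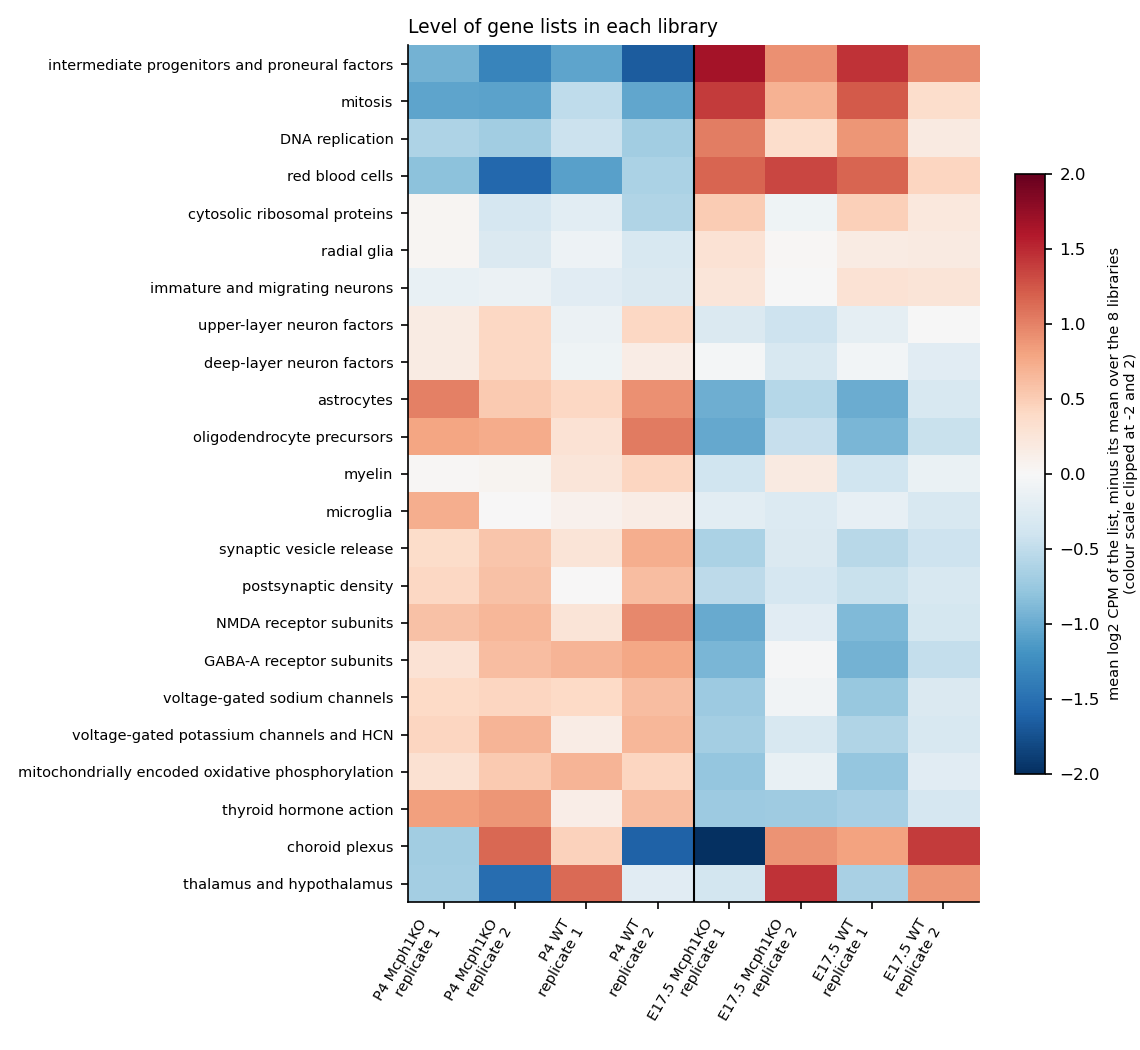
Mean log2 CPM of each gene list in each library, minus the list's mean over the 8 libraries, with the 4 P4 libraries left of the line and the 4 E17.5 libraries right of it (red higher, blue lower). The intermediate progenitor, mitosis and blood lists are below that mean in every P4 library, the astrocyte, oligodendrocyte precursor and synaptic vesicle lists are above it there, the radial glia list lies near it in both stages, and the choroid plexus and thalamus lists vary from library to library within a stage.

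Presynaptic genes rose almost throughout. Of 28 genes of synaptic vesicle release 25 were higher and none was lower, with a median of 0.97 and a summed level of 5670 to 8000 CPM at P4 and 3200 to 3840 CPM at E17.5. Vamp2, the vesicle SNARE synaptobrevin, was at 507, 527, 416 and 569 CPM at P4 and 243, 279, 249 and 282 CPM at E17.5 (0.94 ± 0.12). Every P4 library was above every E17.5 library. Sv2b, a vesicle glycoprotein, was at 104, 148, 78.7 and 173 CPM at P4 and 33, 39.9, 31.4 and 39.8 CPM at E17.5 (1.81 ± 0.23). Syn2, the vesicle-tethering synapsin II, rose by 1.32 ± 0.17.

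On the postsynaptic side 20 of 28 genes of the postsynaptic density were higher and 2 lower (median 0.81). Camk2a, the calcium kinase of spines, was at 264, 340, 151 and 355 CPM at P4 and 53.6, 81.8, 52.8 and 62.6 CPM at E17.5 (2.15 ± 0.26). The scaffold gene Dlg2, which encodes PSD-93, rose by 1.4 ± 0.17. Homer3, a scaffold of metabotropic receptors, went the other way, at 18.6, 18.4, 17.3 and 14.6 CPM at P4 and 57.6, 39.9, 59.1 and 41.9 CPM at E17.5 (-1.53 ± 0.16). Nrgn, described above, is of the same list. The counts were 11 higher and 1 lower in the reduced set.

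NMDA receptors are assembled from the obligate subunit GluN1 and GluN2 or GluN3 subunits, and the replacement of GluN2B by GluN2A is a known feature of the first postnatal weeks. Grin1, which encodes GluN1, was at 231, 234, 157 and 271 CPM at P4 and 40.9, 78, 41.3 and 74.2 CPM at E17.5 (1.93 ± 0.26, adjusted p = 0.000929, edgeR's quasi-likelihood test). Grin2a (chr16:9567898-9995560, - strand), which encodes GluN2A, was at 21.6, 24.9, 10 and 22.8 CPM at P4 and 2.39, 5.25, 2.31 and 5.82 CPM at E17.5 (2.32 ± 0.39, adjusted p = 0.00211, edgeR's quasi-likelihood test). Grin2b, which encodes GluN2B, was at 499, 804, 469 and 605 CPM at P4 and 253, 304, 299 and 297 CPM at E17.5 (1.04 ± 0.17). All stages were separate, and the fitted change was largest for Grin2a and smaller for Grin2b; whether the changes of the subunits differ was not tested. Grin3a, which encodes the GluN3A subunit of juvenile receptors, was at 136, 165, 177 and 196 CPM at P4 and 33.4, 66.8, 33.4 and 50.6 CPM at E17.5 (1.87 ± 0.24). Grin2d rose by 1.54 ± 0.43 and lost its call without P4 Mcph1KO replicate 1, and Grin2c (0.30 ± 0.32) and Grin3b (-0.67 ± 0.47) were not called. Thus 5 of 7 subunits were higher, and 5 were in the reduced set.

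Of 18 AMPA and kainate receptor and auxiliary subunits 14 were higher and 1 lower, with a median of 0.66. Gria1, the GluA1 subunit, was at 272, 257, 234 and 265 CPM at P4 and 129, 161, 135 and 168 CPM at E17.5 (0.79 ± 0.12). Gria2, the subunit that makes AMPA receptors impermeable to calcium, was at 359, 402, 426 and 351 CPM at P4 and 199, 268, 191 and 255 CPM at E17.5 (0.75 ± 0.14). Gria3 rose by 0.79 ± 0.13, close to the other subunits. The auxiliary subunit genes Cacng3 (1.43 ± 0.13), Shisa6 (1.5 ± 0.23) and Shisa9 (1.39 ± 0.20), which set the trafficking and desensitisation of the receptor, had larger fitted changes than these pore subunits, a difference that was not tested. The kainate subunit gene Grik1 rose by 1.14 ± 0.21 and Grik3 fell by 0.48 ± 0.13. The call of Grik3 was lost without P4 Mcph1KO replicate 1 or P4 WT replicate 2, and in the reduced set neither was called and 7 genes of the list were higher.

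GABA-A receptors, the chloride channels of fast inhibition, had 11 of 14 subunits higher and none lower (median 1.09). Gabra5, an extrasynaptic subunit of developing forebrain, was at 127, 170, 96.2 and 149 CPM at P4 and 29.1, 46, 29.1 and 35.6 CPM at E17.5 (1.95 ± 0.20). The lowest P4 library was still well above the highest E17.5 library. The alpha, beta, gamma and delta subunit genes Gabrb2 (1.02 ± 0.17), Gabrb1 (1.64 ± 0.32), Gabra3 (1.10 ± 0.20), Gabra4 (1.09 ± 0.21), Gabrd (1.54 ± 0.30) and Gabrg3 (1.71 ± 0.30) rose. Gabra2 (0.35 ± 0.23) was not called. Of 4 glycine receptor genes all were higher, among them the beta subunit gene Glrb (1.58 ± 0.14) and the scaffold gene Gphn, which encodes gephyrin (0.65 ± 0.11), and 2 were in the reduced set.

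The direction of GABA currents depends on chloride transport, with NKCC1 loading and KCC2 extruding chloride. Slc12a5 (chr2:164960802-164999731, + strand), which encodes KCC2, was at 176, 188, 205 and 236 CPM at P4 and 56.2, 128, 55.4 and 72.8 CPM at E17.5 (1.38 ± 0.26, adjusted p = 0.00354, edgeR's quasi-likelihood test). Its E17.5 libraries ranged over more than 2-fold, with Mcph1KO replicate 2 the highest. Slc12a2, which encodes NKCC1, was at 61.6, 63.4, 78.8 and 67.4 CPM at P4 and 62.8, 73.9, 59 and 78.5 CPM at E17.5 (-0.02 ± 0.13, adjusted p = 0.918, edgeR's quasi-likelihood test). Its stages overlapped, and no library stood apart. Of the 6 cotransporter genes measured 3 were higher and 1 lower, and 1 was higher and none lower in the reduced set.

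Voltage-gated sodium channels had 8 of 12 genes higher and 1 lower. Scn2a, the channel of immature axon initial segments, was at 190, 263, 196 and 310 CPM at P4 and 62.4, 101, 67.4 and 90.7 CPM at E17.5 (1.58 ± 0.21). Scn1a, a channel of fast-spiking interneurons, was at 35.7, 33.2, 35.5 and 38.9 CPM at P4 and 12.6, 16.1, 14.8 and 15.4 CPM at E17.5 (1.28 ± 0.12). Scn8a, of mature nodes and initial segments, rose by 0.78 ± 0.12. The 1 lower gene, Scn10a (-1.36 ± 0.46), was low in count with overlapping stages, and it lost its call without any 1 library except E17.5 WT replicate 1, and also in the reduced set. Among potassium and HCN channels 19 of 24 were higher and none lower (median 0.88). Kcnq5, of the slow M current, rose by 1.69 ± 0.20, Kcnd2, of the fast A current, by 1.38 ± 0.21, and Kcna6 by 0.99 ± 0.14. Over the reduced set the higher counts were 5 sodium and 10 potassium and HCN channel genes.

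Calcium channels followed, with 11 of 15 higher and none lower. Cacna1a, the P/Q-type channel of transmitter release, was at 116, 140, 104 and 145 CPM at P4 and 39.3, 63, 40.3 and 50.5 CPM at E17.5 (1.39 ± 0.18). The N-type channel gene Cacna1b (0.80 ± 0.13) and the auxiliary subunit gene Cacna2d3 (1.16 ± 0.14) rose. The count of 11 was 7 without P4 Mcph1KO replicate 2 or E17.5 WT replicate 1 and 4 in the reduced set.

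**Figure D3:**
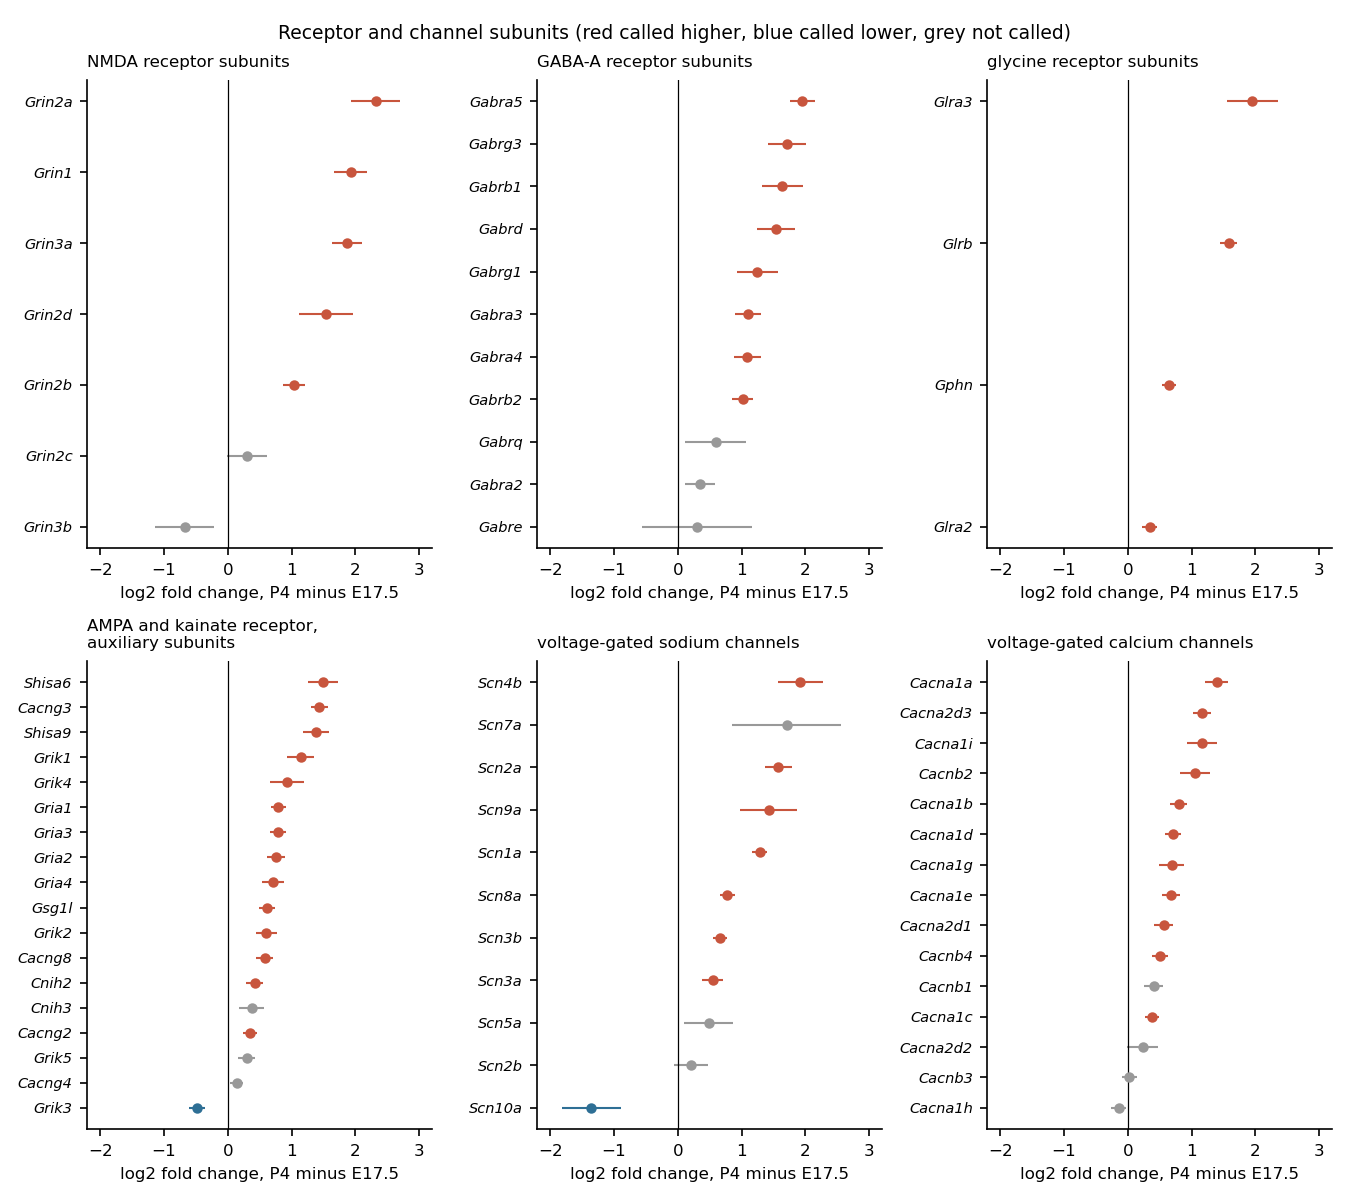
Log2 fold change, P4 minus E17.5, of tested subunits (points) with their standard errors (bars), from 4 libraries a stage, in 6 families. Most subunits lie right of 0, with Grin2a at 2.32, Grin2b at 1.04, Gabra5 at 1.95 and Scn2a at 1.58, and the subunits in blue, Grik3 and Scn10a, are lower at P4.

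Immediate-early genes, which neurons switch on with activity, were higher in 8 of 19 cases and lower in 4. Egr1 was at 26.2, 36.4, 57.2 and 28.7 CPM at P4 and 4.9, 8.57, 6.14 and 6.87 CPM at E17.5 (2.47 ± 0.27). Egr2 was at 3.75, 3.28, 1.29 and 2.27 CPM at P4 and 0.188, 0.121, 0.0935 and 0.0388 CPM at E17.5 (4.51 ± 0.40). These factors rose in every P4 library, and Egr3 (1.76 ± 0.30) and Nr4a1 (1.28 ± 0.20) rose too. Fos was at 5.89, 4.73, 16.3 and 4.46 CPM at P4 and 1.16, 1.94, 1.5 and 1.44 CPM at E17.5 (2.30 ± 0.43), with P4 WT replicate 1 well above the other P4 libraries, and it was not called in the reduced set. Arc, an effector at synapses, was not called (0.40 ± 0.21), and Dusp1, a stress-induced phosphatase gene, fell by 1.06 ± 0.17. The counts were 6 higher and 2 lower in the reduced set.

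Among 11 neurotrophins and receptors 3 were higher (27.3%) and 2 lower (18.2%). Ntrk2, the TrkB receptor of BDNF, was at 523, 530, 440 and 573 CPM at P4 and 186, 232, 194 and 272 CPM at E17.5 (1.23 ± 0.15). Ntf3, which encodes neurotrophin-3, rose by 2.13 ± 0.33, and Bdnf was not called (0.43 ± 0.33). The low-affinity receptor gene Ngfr fell by 0.98 ± 0.21. Axon guidance genes fell more often than they rose, 12 against 4 of 34. Efnb1, an ephrin of ventricular zone progenitors, was at 33.8, 35.3, 41.3 and 38.5 CPM at P4 and 183, 109, 171 and 109 CPM at E17.5 (-1.95 ± 0.19). Epha3, an ephrin receptor, fell by 1.51 ± 0.20, and Efnb2 fell by 0.97 ± 0.12. With the reduced set, 7 guidance genes were lower and 0 higher, and 1 gene of the neurotrophin list was lower.

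Cytoskeletal genes mostly rose. Of 24 tubulins and microtubule-associated proteins 17 were higher and 1 lower. Tuba4a, an alpha tubulin of mature neurons, was at 62.8, 71.8, 39.1 and 114 CPM at P4 and 12.2, 13.5, 10.5 and 9.81 CPM at E17.5 (2.65 ± 0.29). Map1a, a microtubule-associated protein of mature dendrites, rose by 1.48 ± 0.16. Tuba1c, an alpha tubulin close in sequence to other copies, was the member that fell (-1.42 ± 0.17). The higher count was 7 in the reduced set. Of 9 intermediate filament genes 4 were higher, among them peripherin (Prph, 1.51 ± 0.35), and 3 lower, among them Ina (-0.62 ± 0.15), and the 4 were 2 without any 1 library except the E17.5 libraries numbered 2 and 1 in the reduced set, where Prph was not called.

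Matrix genes changed in both directions by kind. Of 18 proteoglycans, link proteins and tenascins 11 were higher and 2 lower. Bcan, the brain-specific proteoglycan brevican, was at 214, 163, 97.6 and 205 CPM at P4 and 22.4, 32, 22.3 and 51.2 CPM at E17.5 (2.42 ± 0.33). Acan, the aggrecan of perineuronal nets, rose by 2.10 ± 0.38, Ncan, which encodes neurocan, by 0.93 ± 0.17, and the tenascin gene Tnr by 1.04 ± 0.11. Of 20 collagens 6 were lower and none was higher, led by Col2a1 and Col18a1 (-1.10 ± 0.21). The collagen count was 3 without P4 Mcph1KO replicate 2 and 2 in the reduced set. Of 18 genes of meningeal fibroblasts, which make collagens, 1 was higher and 2 lower, with a summed level of 989 to 2010 CPM at P4 and 1050 to 2250 CPM at E17.5, and the 2 were 1 without P4 Mcph1KO replicate 1 or 2. No proteoglycan or tenascin gene was lower in the reduced set.

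The mitochondrial genome encodes core subunits of the respiratory chain, and 12 of its 13 genes measured were higher and none was lower, with a median of 0.95. mt-Nd5, a subunit of complex I, was at 2050, 2920, 2420 and 2910 CPM at P4 and 737, 1150, 748 and 896 CPM at E17.5 (1.55 ± 0.17). mt-Nd2 rose by 1.37 ± 0.19 and mt-Nd1 by 1.05 ± 0.18, while mt-Atp8 was not called (-0.17 ± 0.20). Mitochondrial transcripts made up 3.81% to 5.02% of counts at P4, against 1.76% and 1.82% in the E17.5 libraries numbered 1 and 3% and 2.89% in those numbered 2, and their rank within E17.5 thus followed the first principal component. Of 47 nuclear-encoded genes of the same complexes 0 were higher and 1 was lower (median 0.02), and the 1 was 0 without any 1 library except P4 Mcph1KO replicate 1, with which left out it was 1, and E17.5 Mcph1KO replicate 2, with which left out it was 3. The mitochondrial count was 6 in the reduced set.

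Glycolytic genes went both ways, 9 higher and 4 lower of 26. Pfkp, the platelet-type phosphofructokinase common in brain, was at 445, 263, 408 and 242 CPM at P4 and 47.8, 112, 44.8 and 76.5 CPM at E17.5 (2.28 ± 0.32). Hk2, the inducible hexokinase of proliferating cells, was at 6.62, 5.25, 4.31 and 3.21 CPM at P4 and 15.9, 9.13, 11.9 and 11.1 CPM at E17.5 (-1.34 ± 0.24). Eno2, the neuronal enolase, rose by 1.34 ± 0.16. The counts were 4 and 1 in the reduced set. Suckling rodents burn ketone bodies from milk fat, and of 18 genes of ketone body and fatty acid use 5 were higher and 1 lower. Oxct1, the enzyme that activates ketone bodies for oxidation, was at 378, 447, 389 and 501 CPM at P4 and 212, 227, 217 and 223 CPM at E17.5 (0.96 ± 0.11). The 5 were 3 without P4 Mcph1KO replicate 1, P4 WT replicate 2, E17.5 Mcph1KO replicate 1 or either E17.5 WT library, and 8 without P4 WT replicate 1, and 1 in the reduced set.

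Cholesterol synthesis genes were higher in 9 of 22 cases and lower in none, with a small median of 0.32. Hmgcs1, a synthase early in the pathway, rose by 0.65 ± 0.12. The count was 3 without P4 Mcph1KO replicate 2, P4 WT replicate 2 or either E17.5 WT library, 4 without E17.5 Mcph1KO replicate 1, and 0 in the reduced set. Cytosolic ribosomal protein genes fell in 35 of 55 cases and rose in 1 (median -0.55). Rps9 was at 343, 316, 267 and 310 CPM at P4 and 620, 426, 593 and 522 CPM at E17.5 (-0.81 ± 0.14), and Rpl34 fell by 0.88 ± 0.16. Many of these genes have processed pseudogenes, so their counts are uncertain. The 35 were 18 without P4 Mcph1KO replicate 2, 17 without P4 WT replicate 2, 14 without E17.5 Mcph1KO replicate 1, 18 without E17.5 WT replicate 1, and 2 in the reduced set.

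Genes of developmental timing fell. Of 11 in the Lin28, Hmga and Igf2bp group 7 were lower and none was higher. Igf2bp1, an RNA-binding protein of fetal tissues, was at 3.64, 6.45, 7.48 and 2.53 CPM at P4 and 33.3, 30.7, 30.3 and 25.3 CPM at E17.5 (-2.57 ± 0.31, adjusted p = 0.000651, edgeR's quasi-likelihood test). Igf2bp3 (-2.19 ± 0.26) and Igf2bp2 (-1.80 ± 0.26) fell, so the whole family moved one way. Hmga2, a chromatin protein of young neural stem cells, was at 0.691, 0.801, 1.49 and 0.643 CPM at P4 and 7.38, 3.8, 5.92 and 1.82 CPM at E17.5 (-2.38 ± 0.48), and was not called in the reduced set. Lin28b was not called (0.24 ± 0.38), and Lin28a did not pass the filter on low counts. The count of 7 was 4 in the reduced set.

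Of 27 imprinted genes 6 were higher (22.2%) and 7 lower (25.9%), near the 18.7% and 18.1% of all genes tested. H19, the maternally expressed noncoding RNA of the Igf2 cluster, was at 47.4, 22.1, 100 and 52 CPM at P4 and 220, 328, 169 and 253 CPM at E17.5 (-2.22 ± 0.39). Mest, a paternally expressed gene of the same growth network, was at 37.6, 52.2, 88.6 and 41.8 CPM at P4 and 220, 255, 215 and 151 CPM at E17.5 (-1.95 ± 0.28). Both remained present at P4, and P4 WT replicate 1 was the highest P4 library for both. Plagl1, a zinc finger regulator of that network, fell by 0.95 ± 0.16. Rian, a maternally expressed noncoding RNA of the Dlk1 and Meg3 cluster, rose, at 786, 739, 966 and 881 CPM at P4 and 321, 460, 307 and 377 CPM at E17.5 (1.20 ± 0.15). In the reduced set the counts were 1 higher and 5 lower.

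Chromatin regulators fell in 14 of 29 cases and rose in 3. Ezh2, the Polycomb methyltransferase of dividing cells, was at 29.7, 32.1, 43.3 and 21.6 CPM at P4 and 154, 90, 137 and 91.4 CPM at E17.5 (-1.90 ± 0.25). Ezh1, its counterpart in resting cells, was at 36.6, 37.4, 34.1 and 41.1 CPM at P4 and 23.9, 27.4, 25.7 and 29.1 CPM at E17.5 (0.49 ± 0.11), a small rise that was not called in the reduced set. The Polycomb reader gene Cbx2 (-1.99 ± 0.20), the remodeller gene Chd7 (-1.63 ± 0.21) and Lmnb1, which encodes lamin B1 of the nuclear envelope (-1.43 ± 0.16), fell. Among 22 neural splicing regulators 4 were higher (18.2%) and 6 lower (27.3%). Ptbp1, the repressor of neuronal exons in progenitors, was at 85.6, 54.3, 76.4 and 57.1 CPM at P4 and 171, 132, 154 and 124 CPM at E17.5 (-1.09 ± 0.17). Srrm4, the activator of neuronal microexons, fell by 0.91 ± 0.12, and Rbfox1, a splicing factor of mature neurons, rose by 0.69 ± 0.12. The 6 were 3 without P4 WT replicate 2, E17.5 Mcph1KO replicate 1 or E17.5 WT replicate 1. Over the reduced set, 1 splicing regulator was higher and 2 were lower, and 11 chromatin regulators were lower and none was higher.

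Of 14 genes of thyroid hormone action 9 were higher and none was lower (median 1.14). The 9 include genes that are also counted in other lists, such as Nrgn, Mbp and Slco1c1. Klf9, a factor induced by thyroid hormone and glucocorticoids, was at 66, 63.3, 31.4 and 63.5 CPM at P4 and 5.06, 10.1, 4.7 and 10.6 CPM at E17.5 (2.87 ± 0.33, adjusted p = 0.00059, edgeR's quasi-likelihood test). Dio2, the deiodinase of astrocytes that makes the active hormone, was at 32.1, 38.5, 20.9 and 25.2 CPM at P4 and 4.52, 3.72, 6.11 and 9.5 CPM at E17.5 (2.32 ± 0.32). Thrb, the beta receptor, was at 12.9, 16.7, 6.68 and 14.3 CPM at P4 and 2.57, 1.74, 2.93 and 3.92 CPM at E17.5 (2.19 ± 0.34). For the 3 genes P4 WT replicate 1 was the lowest P4 library, and it stayed above all E17.5 libraries. Thra, the alpha receptor, was not called (0.26 ± 0.17).

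Of 20 genes of glucocorticoid response and the circadian clock 9 were higher and 1 lower. Npas2, a clock factor of the forebrain, was at 21, 30.6, 13.6 and 30.8 CPM at P4 and 2.45, 3.76, 2.4 and 4.19 CPM at E17.5 (2.91 ± 0.32). Sgk1, a glucocorticoid-induced kinase, was at 57.5, 58.6, 59.6 and 60.4 CPM at P4 and 19.7, 28.1, 24.2 and 32.2 CPM at E17.5 (1.18 ± 0.14), with P4 libraries nearly equal. The mineralocorticoid receptor gene Nr3c2 rose by 1.53 ± 0.29. The count was 5 in the reduced set.

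Cell death and stress genes completed the lists. Of 24 apoptosis genes 8 were lower (33.3%) and 3 higher (12.5%), against 18.1% and 18.7% of all genes tested. The counts were 5 and 0 in the reduced set. Bmf, which encodes a death-promoting BH3 protein (-1.62 ± 0.19), its antagonist Bcl2 (-0.87 ± 0.12) and the p53 gene Trp53 (-1.05 ± 0.17) fell. Of 19 genes of hypoxia and heat shock 4 were higher (21.1%), near the share of all genes tested, and 1 lower (5.26%). Among the 4 was Car9, a carbonic anhydrase, at 2.88 ± 0.46. The 4 were 1 or 2 without P4 Mcph1KO replicate 2, P4 WT replicate 2 or any 1 E17.5 library. Of 23 genes of interferon response and MHC class I 2 were higher (8.7%) and none lower, below the shares of all genes tested. The 2 were 0 without P4 Mcph1KO replicate 1, E17.5 Mcph1KO replicate 1 or E17.5 WT replicate 1 and 1 without P4 WT replicate 1 or 2. Of 7 replication-dependent histone genes 3 were lower and none higher, and these genes are near-identical copies whose counts are uncertain. With the reduced set the counts were 1 for hypoxia and heat shock, 0 for interferon and 1 for histones. Over all 55 lists, 1047 genes were tested, counted once, of which 327 were higher and 269 lower.

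**Figure D4:**
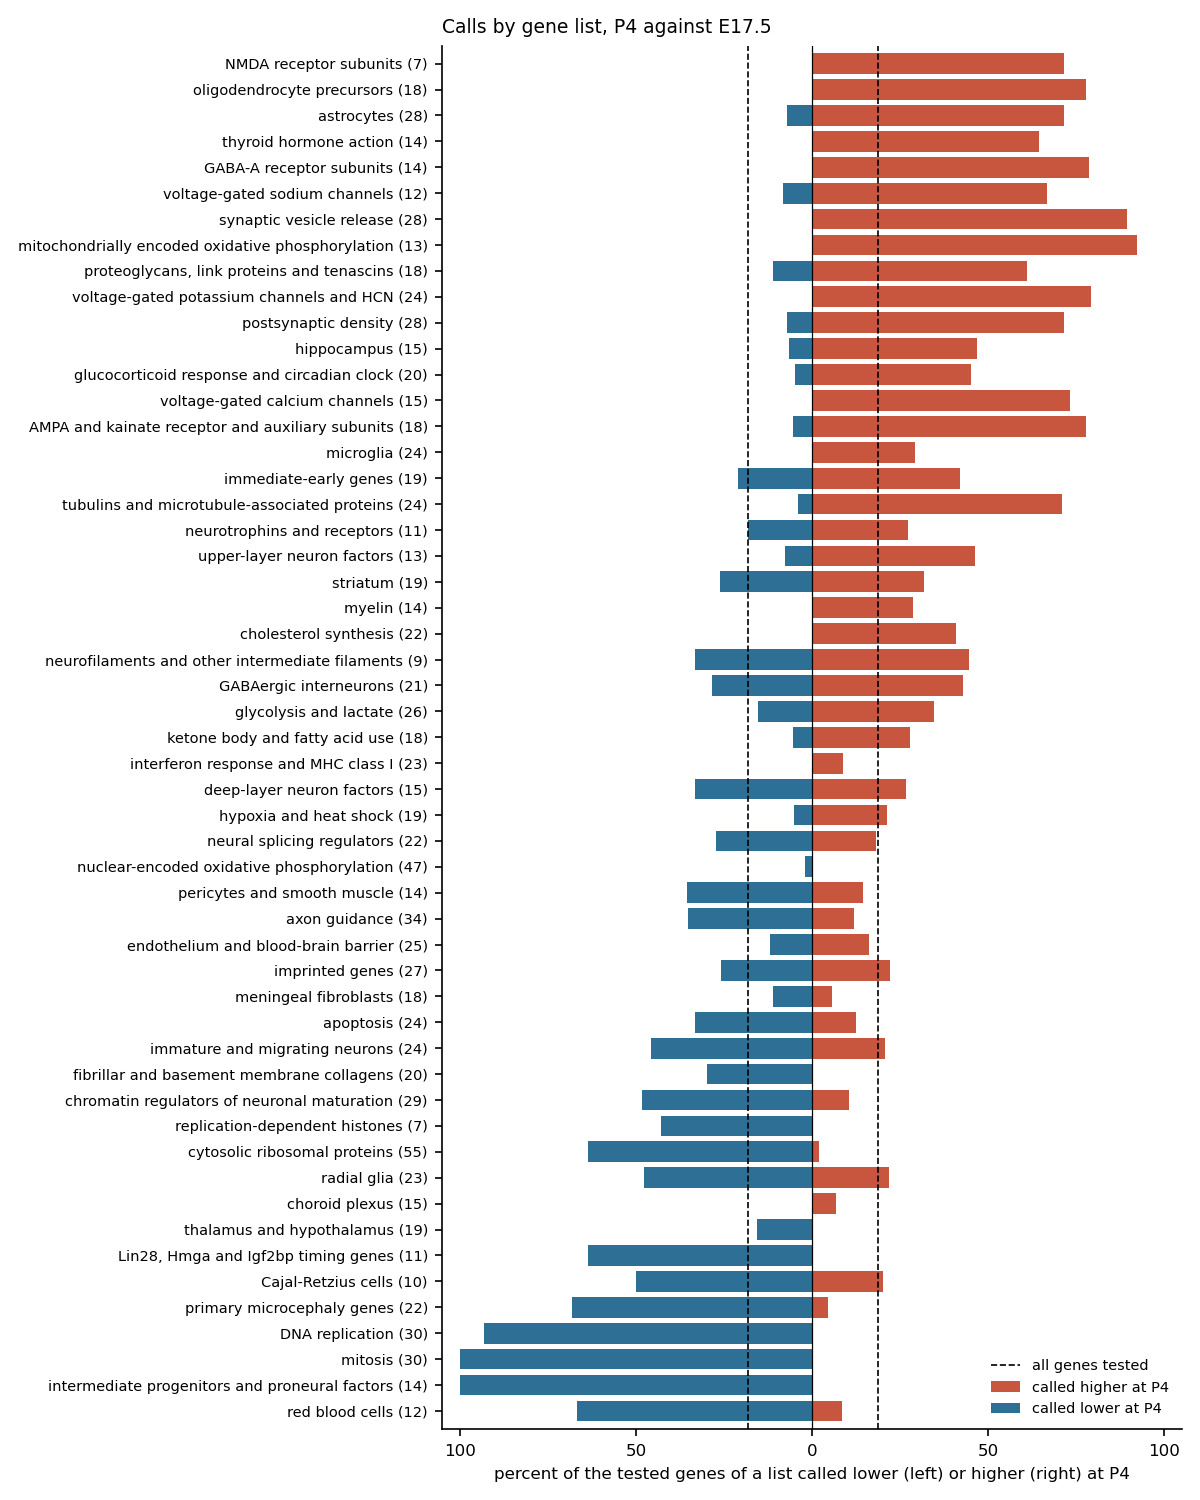
Percent of the tested genes of each list with at least 7 genes tested that were called higher at P4 (red, right) or lower (blue, left), with the number tested in brackets and lists in order of their median log2 fold change. Dashed lines mark 18.7% and 18.1%, the shares of all genes tested that were higher and lower; mitosis and intermediate progenitors reach 100% on the left, and among the lists drawn mitochondrially encoded genes (92.3%) and synaptic vesicle release (89.3%) lie farthest right.

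The step was compared between the libraries labelled Mcph1KO and WT by giving each of the 4 groups its own mean, with 18348 genes tested. Within Mcph1KO 1227 genes were higher at P4 (6.69%) and 1181 lower (6.44%), and within WT 1265 were higher (6.89%) and 1163 lower (6.34%). Of the higher genes 781 were shared, 63.7% of those of Mcph1KO and 61.7% of those of WT, and of the lower genes 708 were shared (59.9% and 60.9%). No gene was called in opposite directions. Every one of the 6501 genes called with genotypes pooled had the same sign in both, which the pooled call in part fixes. Over all genes tested the steps correlated with Pearson's r of 0.631 and Spearman's rho of 0.745, a description across genes that are not independent replicates. For example, the log2 fold change of Neurog2 was -4.70 in Mcph1KO and -5.18 in WT, and that of Aqp4 was 5.05 in Mcph1KO and 4.73 in WT. Most lists had a median step of the same sign in both, but some did not. Meningeal fibroblast genes had a median of -0.77 in Mcph1KO and 0.42 in WT, and imprinted genes -0.60 and 0.45. Choroid plexus genes had 0.63 in Mcph1KO and -1.43 in WT. Genes of thalamus and hypothalamus had -1.92 in Mcph1KO and 0.02 in WT, and those of pericytes and smooth muscle -0.72 and 0.48. These differences were not tested.

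The difference between the genotypes in the step was also tested itself. No gene was called by edgeR's quasi-likelihood test (smallest adjusted p = 1), 443 genes had an unadjusted p under 0.05, and DESeq2 called 11. Among genes also tested with genotypes pooled and without a clone or model name, Col9a3 had the smallest p. It is a cartilage collagen gene also made in meninges. It was at 32.2, 28.4, 16.5 and 15.5 CPM at P4 and 13.8, 21.7, 30.7 and 30.6 CPM at E17.5, so it was higher at P4 in the libraries labelled Mcph1KO and lower in WT. Its step was 0.77 in Mcph1KO and -0.94 in WT. Each group held 2 libraries, and a gene that was not called is not shown to have the same step in both genotypes.

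**Figure D5:**
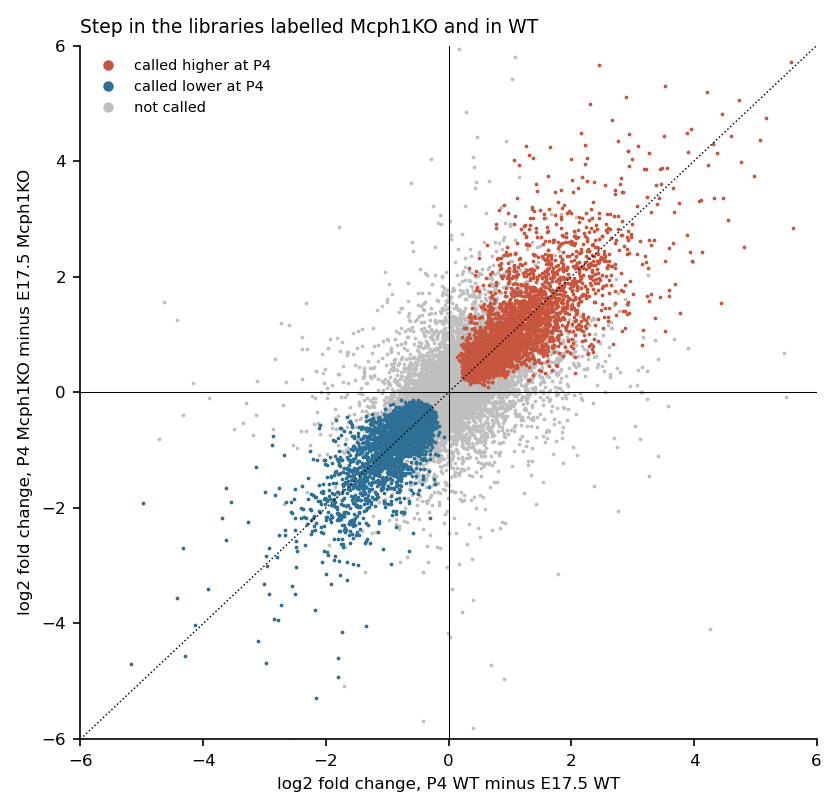
Log2 fold change, P4 minus E17.5, in the libraries labelled Mcph1KO (vertical) and in WT (horizontal) for every gene tested with genotypes pooled, coloured by its pooled call; 64 genes lie outside the axes. All 3297 red and 3204 blue points, those outside the axes included, lie in the quadrants where both genotypes moved the same way.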

How the data were processed

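The deposited values were estimated counts per gene on GRCm38.p6, made by the authors with Trimmomatic 0.39, FastQC and Salmon 1.4.0, per the submitters' processing notes. They were whole numbers for 54281 genes, so no rounding was applied, and Salmon divides a read that fits several genes between them. The GENCODE M21 table gave 54107 gene IDs a symbol, 53544 with the same version, and 174 had none. Samples were grouped by their titles.

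Tests used R 4.3.3 and edgeR 4.0.16 (filterByExpr with a minimum count of 10 and a minimum total count of 15, TMM, quasi-likelihood F test, genotype and stage as terms, 5 residual degrees of freedom). A call is an adjusted p under 0.05 (Benjamini-Hochberg). CPM are TMM-scaled over the 8 libraries. Lists were described by counts and medians and not tested. The tests were first tried on simulated data. There edgeR called 49 of 100 genes given a 2-fold stage change and 75 of 100 given a 4-fold change. For the genotype difference in the step it called 1 and 35 of 100, so most differences of these sizes were missed.

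Named genes were Mcph1, the 12 largest rises and falls and the 6 smallest p-values each way among called genes with non-overlapping stages and a mean of at least 5 CPM in the higher stage, up to 4 called members of each list with up to 2 that went against it, any member of lists of at most 20 measured genes, and the gene of smallest p for the genotype difference. Genes with a clone or model name (463 of those higher, 211 of those lower) were not named. For the genotype difference, only genes also tested with genotypes pooled were considered for naming. Some genes are not reported here. The comparison, the lists and the named genes were chosen with earlier results of these data known. Alternatives were DESeq2 1.42.0, RLE size factors, total count scaling, no filter, all 16 cortex libraries, the replicate number as a block, no genotype term, 1 mean per group, either genotype alone and each library left out. Leaving out both E17.5 libraries of a number was chosen after seeing the data. Promoters came from RefSeq tables of GRCm38.p6.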

Additional observations from a re-analysis of the deposited data

Results flagged for a closer look

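In 192 comparisons of the 4 libraries of a stage, over 55 list means, 35 leading genes and 6 library measures such as total count, 11 had 1 library that stood apart from the other 3 (5.73%), where chance alone gives about 5%. Among the list means, mitosis was 3.698 log2 CPM in P4 WT replicate 1, against 3.142 to 3.163 in the other P4 libraries. The glucocorticoid and clock list was 4.294 in P4 WT replicate 1, against 4.71 to 4.784, and the sodium channel list was 4.368 in P4 WT replicate 2, against 4.158 to 4.187. Among E17.5 libraries, the list of immature and migrating neurons was 9.001 in Mcph1KO replicate 2, against 9.248 to 9.292. The choroid plexus list was -0.203 in E17.5 Mcph1KO replicate 1, against 3.011 to 3.602, and the thyroid hormone list was 4.481 in E17.5 WT replicate 2, against 4.084 to 4.15.

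Among single genes, the astrocyte genes Gfap and Agt were both highest in E17.5 WT replicate 2, Gfap at 11.6 CPM, against 1.57 to 2.06 CPM in the other E17.5 libraries, and Agt at 1.2 CPM, against 0.0623 to 0.121 CPM. C4b was 15.5 CPM in P4 Mcph1KO replicate 1, against 1.89 to 4.17 CPM in the other P4 libraries. Col2a1 was 8.77 CPM in P4 WT replicate 1, against 2.91 to 3.48 CPM. Hba-a2 was 341 CPM in E17.5 Mcph1KO replicate 1, against 559 to 590 CPM in the other E17.5 libraries.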

How the results depend on the processing

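The count of 3297 genes higher at P4 was 3621 by DESeq2, 3269 with RLE size factors and 2928 with total count scaling, and that of 3204 lower was 3663, 3233 and 3819. Under total count scaling 43.4% of calls were higher, against 50.7%, and the median of all genes moved by under 0.1 under each scaling. With 1 library left out the counts ran between 2145 and 3410 higher and between 2127 and 3687 lower, the lowest without E17.5 Mcph1KO replicate 1. Without both E17.5 libraries numbered 1 they were 1146 higher and 1095 lower, and without both numbered 2, 3592 and 3838. The 4 Mcph1KO libraries alone gave 1457 higher and 1281 lower, and the 4 WT libraries alone 1031 and 927, with fewer samples in each fit. The cause of the other differences was not tested.

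The genotype difference in the step was called for 11 genes by DESeq2, 166 with no filter on low counts, 2 with the replicate block, 2 without both E17.5 libraries numbered 1, and 0 to 1 with 1 library left out. With the replicate block 3547 genes were higher and 3528 lower. Numbers did not pair the stages: deviations of same-numbered P4 and E17.5 libraries correlated at -0.0865 in Mcph1KO and -0.0122 in WT. Within a stage, same-numbered Mcph1KO and WT libraries correlated at 0.532 at E17.5 and 0.208 at P4, so the libraries of a stage may not be independent, which would make the p-values too small; the labels do not say what a number marks.

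Of 360 named genes called, none reversed under any alternative, 279 kept their call without any single library, and 219 of 357 kept it without both E17.5 libraries numbered 1. The E17.5 libraries numbered 1 were the deepest of all, with total counts of 31643810 (Mcph1KO) and 32041849 (WT). Those numbered 2 had 23654447 (Mcph1KO) and 25240199 (WT). The part of depth in the calls was not tested, and the small number of libraries limits the precision.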

Other observations

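Some gene families not described above held unequal numbers of higher and lower genes. Genes grouped by the stem of their symbol included 376 zinc finger genes with the stem Zfp, of which 14 were higher at P4 and 168 lower, with a median log2 fold change of -0.43, against 18.7% and 18.1% of all genes tested. Families of gene regulation with more lower than higher genes were the Rbm genes, which encode RNA-binding proteins, with 2 higher and 17 lower of 37, the Gtf genes of general transcription factors, with 0 and 12 of 22, and the Taf genes, with 1 and 11 of 22. Some membrane families had more higher genes. Of 281 solute carrier genes (Slc) 99 were higher and 19 lower, of 56 Gpr receptor genes 19 and 2, and of 22 cadherin genes (Cdh) 10 and 1. Of 73 genes with the stem Atp, which include ion pumps and the ATP synthase, 32 were higher and 4 lower. ATP synthase genes were among the 47 nuclear genes of the respiratory chain, of which 0 were higher. Of 22 protocadherin beta genes (Pcdhb), clustered adhesion genes of neurons, 8 were higher and none lower. These families were found after the values were seen and were not tested as groups.

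The adult libraries, labelled A6w and A18w, show where the step led, on a scale over all 16 cortex libraries. Of the 3297 genes higher at P4, 1980 had an adult mean above both stages, 776 between them and 541 below both. Of the 3204 lower, 2192 had an adult mean below both, 716 between and 296 above. Grin2a averaged 3.61 CPM at E17.5, 18.1 at P4, 273 at A6w and 203 at A18w. Mbp averaged 25.5, 44.9, 2460 and 3300 CPM in the same order of stages, and Gpr37l1 0.552, 13.3, 190 and 194 CPM. Sox11 averaged 1360, 440, 20.6 and 18.2 CPM. In some genes that rose, the adult means lay near the E17.5 mean. Pla2g3 averaged 1.01 CPM at E17.5, 18.6 at P4, 2.47 at A6w and 1.75 at A18w, and Dsc3 averaged 0.796, 8.09, 1.83 and 0.815 CPM. The globin gene Hbb-bt averaged 184, 15.8, 29.2 and 32.1 CPM, so its lowest stage was P4. The adult stages hold 4 libraries each and were not tested here.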
